A study of Homo sapiens with 79 samples.

Results

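The RNAs recovered with SUZ12 were compared directly with the RNAs recovered with EZH2, in 3 SUZ12 fRIP libraries and 2 EZH2 fRIP libraries, taken by their sample titles from the 79 libraries of the series. fRIP (formaldehyde RNA immunoprecipitation) sequences the RNA that comes down with an antibody after a light cross-link of living cells and shearing by sonication, and input RNA is sequenced from the same kind of lysate without the antibody. All libraries were made from K562, an established human leukemia line with erythroid features, grown without any treatment. The SUZ12 antibody was 3737S from Cell Signaling and the EZH2 antibody ab3748 from Abcam, each used alone, so an antibody and its protein cannot be told apart. By the study's methods the replicates were made on different dates from different lysates. The series has 9 input libraries in 3 sets of 3, and the group values in the deposited comparisons lay nearest to input set 1 for SUZ12 and to input set 3 for EZH2. The difference between those input sets (3 against 3 libraries) is therefore given beside the genes described in most detail.

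SUZ12 and EZH2 are subunits of Polycomb repressive complex 2 (PRC2), which methylates histone H3 on lysine 27 and keeps developmental genes silent. EZH2 carries the methyltransferase activity, SUZ12 holds the core of the complex together, EED reads the methyl mark, and RBBP4 and RBBP7 bind histones. PRC2 is known to bind many RNAs with little selectivity, and it is active in blood progenitors.

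Values are FPKM, a scale on which the fragments of a transcript are divided by its length and by the mapped fragments of the library. Differences are given as log2(FPKM + 1) of SUZ12 minus EZH2, so that positive values are higher with SUZ12. The added 1 FPKM makes the change of weakly measured genes look smaller. A gene was called when its adjusted p was under 0.05 (limma over 25442 genes, Benjamini-Hochberg) and the log2 difference was beyond 1 in size. With 3 against 2 libraries an exact two-sided rank test of a single gene cannot go below p = 0.2. The p-values given are therefore those of the limma fit, which borrows the spread of all 79 libraries.

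The 5 libraries differed in depth. Read from the FPKM steps of genes with 1 isoform, it was 21.3 to 25.0 M (mega) fragments for SUZ12 and 9.17 to 12.9 M for EZH2, against 20.4 to 22.6 M for input set 1 and 12.1 to 15.3 M for input set 3. Replicates were alike over the genes tested, with a Pearson r of log2(FPKM + 1) of 0.975 to 0.980 within SUZ12 and 0.972 within EZH2, and the 6 pairs of a SUZ12 and an EZH2 library gave 0.837 to 0.865. Of 10 K562 marker genes, all 10 were above 0 in every one of the 5 libraries, and their summed level was 636 to 1507 FPKM with SUZ12 and 1945 to 2163 FPKM with EZH2. Of 8 markers of lymphoid, stromal or liver cells, 3 reached 1 FPKM in each library, with sums of 8.11 to 17.5 FPKM with SUZ12 and 33.0 to 35.7 FPKM with EZH2, and the B cell marker MS4A1 was at 0 throughout. Of the tested markers 3 of 10 and 3 of 5 were called for EZH2 against SUZ12, where 13.1% of all genes and 17.8% of mRNAs were, and 0 for SUZ12. With the input difference subtracted the counts for EZH2 were 4 and 1. The median difference of the tested markers was -0.91 and -1.13 between the proteins, and -0.35 and 0.21 between the input sets. These are levels of RNA recovered with an antibody from a lysate that pools many cells. From them alone recovery, fewer cells of a type and less RNA per cell cannot be told apart. The part of these levels in the comparisons was not tested.

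SUZ12 and EZH2 recovered widely different sets of RNA. Of the 25442 genes tested, 4722 (18.6%) were higher with SUZ12 and 3341 (13.1%) were higher with EZH2, together 31.7%. Between input set 1 and input set 3, only 191 genes (0.751%) were higher in set 1 and 143 (0.562%) in set 3. The libraries of the 2 proteins did not overlap for 8017 of the 8063 called genes. Without regard to a call, all SUZ12 libraries were above both EZH2 libraries for 39.3% of the genes tested, and the reverse held for 24.5%.

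When the difference between the input sets was subtracted, 3688 genes (14.5%) were higher with SUZ12 and 2853 (11.2%) with EZH2, together 25.7%. Of the genes called in the direct comparison, 3283 of 4722 (69.5%) stayed called for SUZ12 and 2544 of 3341 (76.1%) for EZH2, while 20 and 36 turned in sign. The balance of the 2 directions depended on the scale. The median gene was 0.15 higher with SUZ12 as deposited, and centring each library on its median moved all differences by -0.19 and left 3809 genes (15.0%) higher with SUZ12 and 4074 (16.0%) higher with EZH2, 31.0% in all. The share of calls that were higher with SUZ12 was thus 58.6% as deposited and 48.3% after centring. All 3341 genes called for EZH2 were also called after centring. Centring left 47 genes (0.185%) higher in input set 1 and 539 (2.12%) higher in input set 3, and with both steps 4178 genes (16.4%) were higher with SUZ12 and 2542 (9.99%) with EZH2, together 26.4%.

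**Figure D1:**
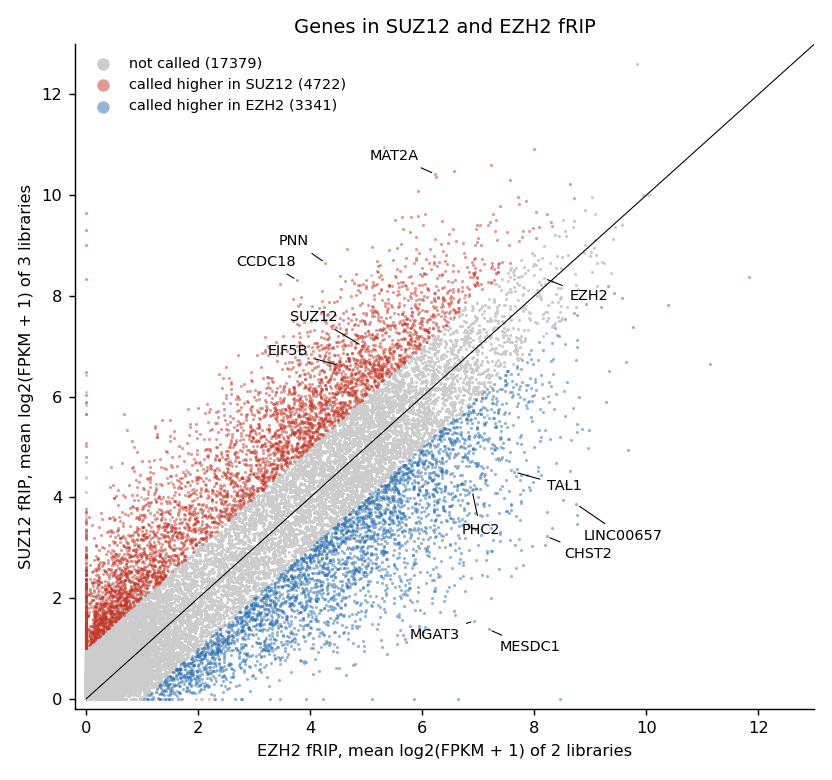
Each point is a gene, with the mean log2(FPKM + 1) of the 2 EZH2 libraries on the x axis and of the 3 SUZ12 libraries on the y axis, and the line marks equal values. The 4722 genes called higher with SUZ12 (red) and the 3341 called higher with EZH2 (blue) lie over a wide range of levels, and EZH2 mRNA itself sits close to the line. A call needs a difference beyond 1, so genes under 1 on both axes cannot be called.

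Each of the 2 proteins was also set against its own input set, and these comparisons share no library. SUZ12 was above input set 1 for 3421 genes (13.4%) and below it for 2203 (8.66%). EZH2 was above input set 3 for 2669 genes (10.5%) and below it for 1952 (7.67%). Of the genes above input with SUZ12, 284 (8.30%) were also above input with EZH2, where 10.5% of all genes were. The same 284 are 10.6% of the EZH2 genes, where 13.4% of all genes were above input with SUZ12. Below input the proteins shared more, with 874 genes in common of the 2203 with SUZ12 and the 1952 with EZH2. Across the 25442 genes the enrichments of the proteins over their input had a Spearman correlation of 0.198 (0.123 to 0.225 over the 6 library pairs). Genes are not independent replicates, and this value is given as a description.

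By class, 13618 mRNAs, 5245 long noncoding RNAs (lncRNAs) and 5247 pseudogenes were tested. Among mRNAs 3039 (22.3%) were higher with SUZ12 and 2425 (17.8%) with EZH2. The lncRNAs gave 739 (14.1%) and 533 (10.2%), and after the input difference was subtracted 377 and 510. Pseudogenes gave 764 and 194, and 396 and 186 after subtraction. The median difference between the input sets was 0.01 for mRNAs and 0.21 for both other classes.

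The mRNA with the largest difference toward SUZ12 was CCDC18 (ENSG00000122483.13, chromosome 1, 93645476 to 93744287, plus strand of hg19), a coiled-coil centriolar satellite gene. It measured 331, 275 and 349.6 FPKM with SUZ12 and 14.4 and 11.0 FPKM with EZH2. Every SUZ12 library was thus far above both EZH2 libraries, with a log2 difference of 4.55 (SE 0.16, limma adjusted p = 4.85e-32) beside 0.33 between the input sets. PNN, which encodes the splicing associated protein pinin (chromosome 14, 39644387 to 39652424, plus strand), measured 411, 364 and 433 FPKM with SUZ12 and 21.0 and 15.9 FPKM with EZH2. Its log2 difference was 4.38 (SE 0.20, limma adjusted p = 6.63e-27) and the input difference 0.34. MAT2A, the enzyme that makes the methyl donor S-adenosylmethionine (chromosome 2, 85766291 to 85772404, plus strand), measured 1142, 1216 and 1833 FPKM against 76.9 and 70.9 FPKM. This mRNA was the most abundant of the group and its log2 difference was 4.19 (SE 0.20, limma adjusted p = 1.28e-25) with 0.47 between the inputs. Of its 25-base words 27.2% occur in other genes. CCDC66 and CCDC41 (also known as CEP83), both of centrosomes and cilia, had means of 248 ± 48.0 and 255 ± 57.1 FPKM with SUZ12 (SD, n = 3) and of 12.1 ± 3.28 and 13.6 ± 4.89 FPKM with EZH2 (SD, n = 2).

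The rest of the 10 mRNAs chosen for SUZ12 carry limits of their own. ATXN3L (4.28) is an intronless copy of ATXN3, 60.4% of it lies opposite to GS1-600G8.3, and 57.4% of its 25-base words occur in transcripts of other genes. RP11-637O19.3 (4.15) is a readthrough transcript with 97.2% of such words shared with its neighbours, so neither can be assigned with certainty. ARHGAP19-SLIT1 (4.13) is also a readthrough gene. TTC18 (4.19) and MYH15 (4.14) were higher in input set 1 than in set 3 by 1.25 and 2.31, and with that subtracted their differences were 2.93 and 1.83. MYH15, with 65.6, 57.9 and 17.2 FPKM with SUZ12, then no longer passed the test.

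The mRNAs with the largest differences toward EZH2 had 1 to 5 exons in their most expressed transcript and a GC content of 54.4 to 71.2%. MESDC1 (ENSG00000140406.2, chromosome 15, 81293264 to 81298129, plus strand), which encodes an actin binding protein in a single exon, measured 1.77, 1.51 and 1.51 FPKM with SUZ12 and 126 and 165 FPKM with EZH2. Both EZH2 libraries lay far above all SUZ12 libraries, with a log2 difference of -5.81 (SE 0.24, limma adjusted p = 8.02e-29), of which the input sets differed by -1.17. MGAT3, a glycosyltransferase of N-glycan branching (chromosome 22, 39853017 to 39888199, plus strand), measured 2.09, 1.57 and 2.15 FPKM with SUZ12 and 100.2 and 145 FPKM with EZH2. The log2 difference was -5.38 (SE 0.25, limma adjusted p = 1.49e-26) and the input sets differed by -0.01. B3GALT6, a galactosyltransferase that builds proteoglycan linkers from a single exon (chromosome 1, 1167617 to 1170421, plus strand), measured 3.57, 2.33 and 3.21 FPKM against 127 and 172 FPKM, with a log2 difference of -5.22 beside -0.21 between the inputs. CENPB, the centromere protein that binds alpha satellite DNA, also has a single exon and had a mean of 7.25 ± 0.549 FPKM with SUZ12 (SD, n = 3) and of 294 ± 39.8 FPKM with EZH2 (SD, n = 2). PPP1R26, MFHAS1, FAM83H, NR2F6, CHST2 and TIGD5 completed the group, with differences from -5.28 to -4.93. With the input difference subtracted all 10 remained between -5.51 and -4.33.

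**Figure D2:**
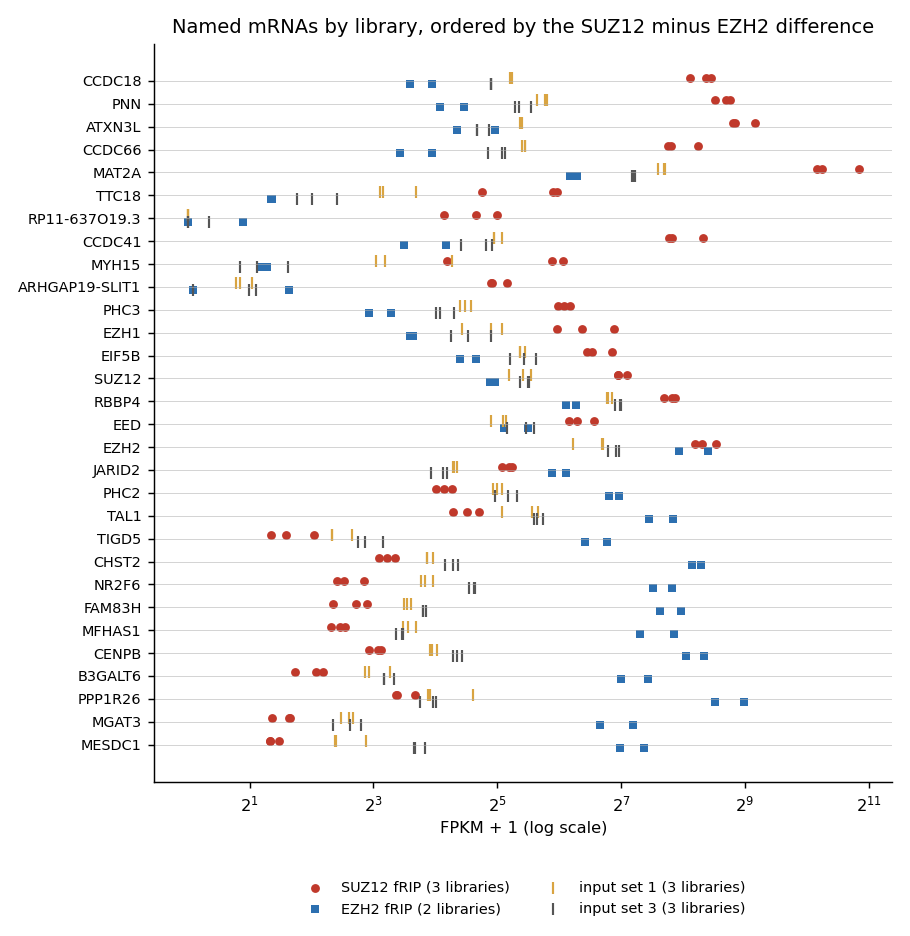
FPKM + 1 on a log scale for 30 named mRNAs in the 3 SUZ12 libraries (circles), the 2 EZH2 libraries (squares) and the 6 libraries of input sets 1 and 3 (ticks). From CCDC18 to CCDC41 all SUZ12 circles lie above both EZH2 squares, from TIGD5 to MESDC1 all lie below, and at EZH2 mRNA they overlap.

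To show what the sequence words of the comparison look like in these mRNAs, 60 coding bases of each are given within 1 exon, read from the hg19 genome and placed on the mRNA strand, chosen as the window most covered by the 3 hexamers that had the highest correlation with the difference for SUZ12 (AAGAAA with AAAGAA and GAAGAA) or the lowest for EZH2 (GGGGCC with GGGCCC and GCGGCC). Capitals mark those hexamers. The hexamers were ranked on the same difference as the genes, so the contrast between the windows, and that between the whole transcripts, is built into the choice and is no result. The genes are the 3 of each group above with the largest differences, a coding most expressed transcript and under 5% of 25-base words in other genes, and EIF5B, a translation initiation factor that joins the ribosomal subunits.
PNN, exon 9, chr14:39650249-39650308, plus strand: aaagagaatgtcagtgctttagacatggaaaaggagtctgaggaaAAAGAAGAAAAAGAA
CCDC41, exon 13, chr12:94725529-94725588, minus strand: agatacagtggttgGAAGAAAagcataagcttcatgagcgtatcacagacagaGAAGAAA
MYH15, exon 33, chr3:108127132-108127191, minus strand: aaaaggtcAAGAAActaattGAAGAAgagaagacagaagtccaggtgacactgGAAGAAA
EIF5B, exon 5, chr2:99980127-99980186, plus strand: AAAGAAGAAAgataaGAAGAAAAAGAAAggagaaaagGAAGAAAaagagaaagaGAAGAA
MESDC1, exon 1, chr15:81294747-81294806, plus strand: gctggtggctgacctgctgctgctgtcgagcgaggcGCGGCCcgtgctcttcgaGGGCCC
MGAT3, exon 2, chr22:39883736-39883795, plus strand: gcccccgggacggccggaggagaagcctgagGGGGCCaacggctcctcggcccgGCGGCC
B3GALT6, exon 1, chr1:1167858-1167917, plus strand: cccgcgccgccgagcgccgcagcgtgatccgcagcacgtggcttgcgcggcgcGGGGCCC

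Over whole transcripts, the first set of hexamers occurred 5.09 (PNN), 8.31 (CCDC41), 8.20 (MYH15) and 15.2 (EIF5B) times per kilobase, against a median of 2.15 over 13567 mRNAs. It occurred 0.371 times per kilobase in MGAT3 and 1.43 times in B3GALT6, but 3.08 times in MESDC1, which is above that median. The second set occurred 3.21 to 4.26 times per kilobase in the 3 EZH2 mRNAs and 0.141 to 0.523 times in the 4 SUZ12 mRNAs, against a median of 0.818. At least 1 hexamer of the first set was present in 84.9% of these mRNAs and of the second set in 73.7%. Whether they are bound was not tested.

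Over the 13567 mRNAs with a matched transcript, the difference rose with the number of exons and fell with GC content. The Spearman correlation of the difference with exon number was 0.424 (0.363 to 0.454 over the 6 library pairs), and between the input sets exon number gave 0.0877. With GC content it was -0.321 (-0.344 to -0.260), with 0.00853 between the input sets. With transcript length it was 0.0494, and with length and GC held by rank, exon number still gave 0.477. These correlations run across genes within the same few libraries and carry no p.

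The median difference was -0.44 for 367 mRNAs of 1 exon and -0.54 for 2032 mRNAs of 2 to 3 exons. It was 0.32 for 3600 mRNAs of 7 to 10 exons and 1.09 for 280 mRNAs of over 25 exons. Of the mRNAs of 2 to 3 exons 106 (5.22%) were called for SUZ12 and 743 (36.6%) for EZH2. Of those of over 25 exons 149 (53.2%) and 8 (2.86%) were called, against 22.3% and 17.8% of all mRNAs. From the fewest to the most exons the median enrichment of SUZ12 over input set 1 went from -0.43 to 1.24, and that of EZH2 over input set 3 went from 0.14 to 0.16, with correlations of 0.546 and -0.0279. Per kilobase of transcript, exon number gave 0.230 for SUZ12 over input, -0.326 for EZH2 over input and 0.328 for the difference, so on that scale both proteins moved.

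For GC content both proteins moved. The median difference was 0.72 for 2136 mRNAs under 40% GC and -0.37 for 2160 mRNAs over 60% GC. SUZ12 over input went from 0.56 to 0.01 between these bins, and EZH2 over input went from -0.26 to 0.36. When the features were crossed, the median difference ran from 1.94 in 50 mRNAs of over 25 exons under 40% GC, of which 42 were called for SUZ12 and 0 for EZH2, to -1.61 in 78 mRNAs of 1 exon over 60% GC, of which 0 were called for SUZ12 and 46 for EZH2. EZH2 over input also had a correlation of 0.319 with transcript length, against 0.261 for SUZ12 over input.

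**Figure D3:**
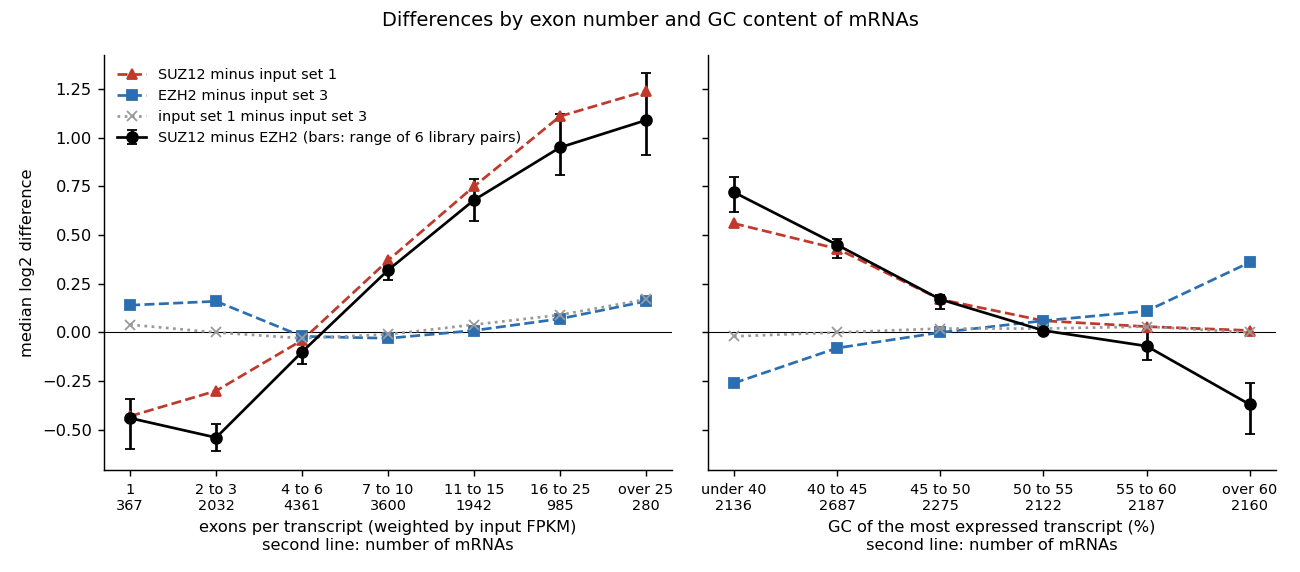
Median log2 differences of mRNAs by exons per transcript (left) and by GC content in % (right), with the number of mRNAs under each bin, for SUZ12 minus EZH2 (black, bars give the range over the 6 library pairs), each protein minus its input set (dashed) and input set 1 minus set 3 (dotted). The black line rises from -0.44 at 1 exon to 1.09 at over 25 exons and falls from 0.72 under 40% GC to -0.37 over 60% GC, while the input sets stay between -0.03 and 0.17.

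Of all 4096 hexamers, 17 of the 20 with the lowest correlation to the difference consisted of G and C alone, from -0.229 for GCGGCC. The highest were AAGAAA (0.249), AAAGAA (0.244) and GAAGAA (0.231). The 8-base word GAAGAAGA, searched on the mRNA strand only with overlapping matches counted, was present in 23.6% of the mRNAs. Its number per kilobase had a correlation of 0.157 with the difference, and 0.0255 once GC content and exon number were held by rank. By number of occurrences, the median difference was 0.06 in 10366 mRNAs with none and 1.09 in 420 mRNAs with 3 or more. Of the latter 224 (53.3%) were called for SUZ12 and 32 (7.62%) for EZH2, against 22.3% and 17.8% of all mRNAs. MYH15 holds 10, EIF5B 9 and PNN 1, while CCDC41 and CCDC66 hold 0. Among the mRNAs chosen for EZH2, CENPB holds 2 and TIGD5 1, and the other 8 hold 0.

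Of the 11 genes of PRC2 itself 4 (36.4%) were called for SUZ12 and 0 for EZH2, against 18.6% and 13.1% of all genes, with a median of 0.83 against 0.15. The counts were 3 and 1 after centring and 4 and 1 with the input difference subtracted. Over all mRNAs 22.3% were called for SUZ12 and 17.8% for EZH2 in the direct comparison. SUZ12 mRNA measured 123, 136 and 123 FPKM with SUZ12 and 28.6 and 30.3 FPKM with EZH2, a log2 difference of 2.08 (SE 0.15, limma adjusted p = 6.85e-18) beside -0.07 between the inputs. EZH2 mRNA measured 293, 315 and 371 FPKM with SUZ12 and 245 and 337 FPKM with EZH2. Its libraries overlapped, with a log2 difference of 0.18 (SE 0.22, limma adjusted p = 0.558), and it was above the own input set of each protein, by 1.81 for SUZ12 and 1.28 for EZH2. EZH1, the second methyltransferase of PRC2, measured 61.3, 81.9 and 117 FPKM against 11.4 and 11.1 FPKM, a difference of 2.79 beside 0.25 between the inputs. RBBP4 (1.60) and EED (1.03) were the other called members. After centring EED was at 0.84 and no longer called, and 61.8% of the 25-base words of RBBP4 occur in other genes. JARID2, an accessory subunit that helps bring PRC2 to chromatin, measured 32.8, 35.4 and 36.8 FPKM with SUZ12 and 67.9 and 57.9 FPKM with EZH2. It lay on the other side with -0.82 (limma adjusted p = 2.90e-08), short of the threshold on size, and was called at -1.02 after centring and at -1.05 with the input difference subtracted. MTF2 (0.93), PHF1 (0.83), AEBP2 (0.45), RBBP7 (0.26) and PHF19 (0.08) were not called.

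Among 19 genes of the sister complex PRC1, 2 (10.5%) were called for SUZ12 and 4 (21.1%) for EZH2, against 18.6% and 13.1% of all genes, with a median of -0.32 against 0.15. Over mRNAs alone these shares were 22.3% and 17.8%, so the share for EZH2 is near that of mRNAs. The paralogs PHC3 and PHC2, which polymerize to join PRC1 complexes, lay on opposite sides. PHC3 measured 66.9, 71.1 and 62.3 FPKM with SUZ12 and 6.60 and 8.71 FPKM with EZH2, and PHC2 measured 18.2, 16.6 and 15.1 FPKM with SUZ12 and 111 and 124 FPKM with EZH2. Their log2 differences were 2.98 (SE 0.16) and -2.75 (SE 0.17), with limma adjusted p of 4.31e-23 and 2.17e-21, input differences of 0.36 and -0.15, and GC contents of 41.3% and 60.2%. CBX2 and CBX6, subunits that read the methyl mark, were called for EZH2, at -2.58 and -2.05.

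Of 10 erythroid regulators 5 were called for EZH2 and 1 for SUZ12, where 13.1% and 18.6% of all genes and 17.8% and 22.3% of mRNAs were. Their median was -1.22 against 0.15 over all genes. TAL1, a master regulator of blood stem and red cells, measured 18.5, 21.9 and 25.0 FPKM with SUZ12 and 173 and 229 FPKM with EZH2, a log2 difference of -3.14 (SE 0.17, limma adjusted p = 4.77e-24) beside -0.23 between the inputs. LMO2, its partner, measured 10.8, 10.7 and 19.4 FPKM against 90.1 and 90.6 FPKM. KLF1 (-2.69), NFE2 (-1.62) and GATA2 (-1.51) were the other genes called for EZH2. MYB, which keeps progenitors dividing, was the exception with 543, 311 and 464 FPKM with SUZ12 and 140.1 and 106 FPKM with EZH2 (log2 difference 1.80). Of 9 globins tested 0 passed (limma, lowest adjusted p = 0.111, with 0 at an unadjusted p under 0.05), and their differences ran from -0.94 to 0.36. HBG2 measured 86.4 and 105 FPKM in SUZ12 replicates 1 and 2 but 541 FPKM in replicate 3, against 382 and 269 FPKM with EZH2.

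Of 13 HOX genes tested 3 (23.1%) were called, all for EZH2, against 13.1% of all genes and 17.8% of mRNAs. With so few genes this share is near that of mRNAs. HOXB9 measured 17.5, 18.2 and 22.2 FPKM with SUZ12 and 166 and 191 FPKM with EZH2 (log2 difference -3.15, SE 0.26, limma adjusted p = 5.75e-16), beside -0.51 between the inputs, with HOXB8 at -2.52 and HOXB7 at -1.90. BCR, 1 partner of the fusion gene of K562, measured 340.3, 252 and 292 FPKM against 595 and 512 FPKM and was not called at -0.91, but was called at -1.11 after centring and at -1.52 with the input difference subtracted. ABL1, the other partner, measured 59.1, 51.9 and 49.5 FPKM against 422 and 401 FPKM and was called for EZH2 (log2 difference -2.93, limma adjusted p = 3.74e-23).

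Of 29 CEP genes of the centrosome tested 20 (69.0%) were called for SUZ12 and 2 (6.90%) for EZH2, against 18.6% and 13.1% of all genes, with a median of 1.70, and with the input difference subtracted 19 and 2. CEP290, a gatekeeper of the cilium with 54 exons, measured 84.0, 85.2 and 121 FPKM with SUZ12 and 5.51 and 3.92 FPKM with EZH2. This gave a log2 difference of 4.09 (SE 0.19, limma adjusted p = 1.84e-26) beside 0.07 between the inputs. CEP19, with 3 exons, lay on the other side at -2.42. Of 31 kinesins 16 (51.6%) were called for SUZ12 and 4 for EZH2, the latter 12.9% and near the 13.1% of all genes. Of mRNAs 22.3% and 17.8% were called. KIF18A, which dampens chromosome movement in mitosis, measured 113, 127 and 164 FPKM against 13.3 and 12.7 FPKM (log2 difference 3.26, input difference 0.03), and KIF1C, a carrier of vesicles, had a mean of 20.7 ± 2.17 FPKM against 104 ± 35.7 FPKM (log2 difference -2.23, input difference -0.37).

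Of 33 hnRNP and SR genes 18 (54.5%) were called for SUZ12 and 4 (12.1%) for EZH2, with a median of 1.23. The second share is near that of all genes and below the 17.8% of mRNAs, of which 22.3% were called for SUZ12. HNRNPH1, a splicing regulator, measured 2046, 1757 and 2007 FPKM with SUZ12 and 259.7 and 249.6 FPKM with EZH2 (log2 difference 2.92, SE 0.16, limma adjusted p = 3.50e-23), with 0.30 between the inputs. The 4 genes on the other side were HNRNPA0 (-3.09), which has a single exon, HNRNPF (-2.82), HNRNPH2 (-1.33) and HNRNPA1L2 (-1.26). HNRNPF measured 101, 85.4 and 84.6 FPKM with SUZ12 and 738 and 558 FPKM with EZH2, opposite to its paralog HNRNPH1. Of 33 spliceosome core genes 15 (45.5%) were called for SUZ12 and 1 (3.03%) for EZH2, against 18.6% and 13.1% of all genes, led by the kinase PRPF4B (3.62). SNRPB was the single core gene called for EZH2 (-1.80). Of 53 initiation factor genes 17 (32.1%) were called for SUZ12 and 4 (7.55%) for EZH2. EIF5B had a mean of 97.6 ± 15.6 FPKM with SUZ12 (SD, n = 3) and of 22.0 ± 2.88 FPKM with EZH2 (SD, n = 2), without overlap, a difference of 2.09 (SE 0.25, limma adjusted p = 1.16e-10) beside -0.02 between the inputs.

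**Figure D4:**
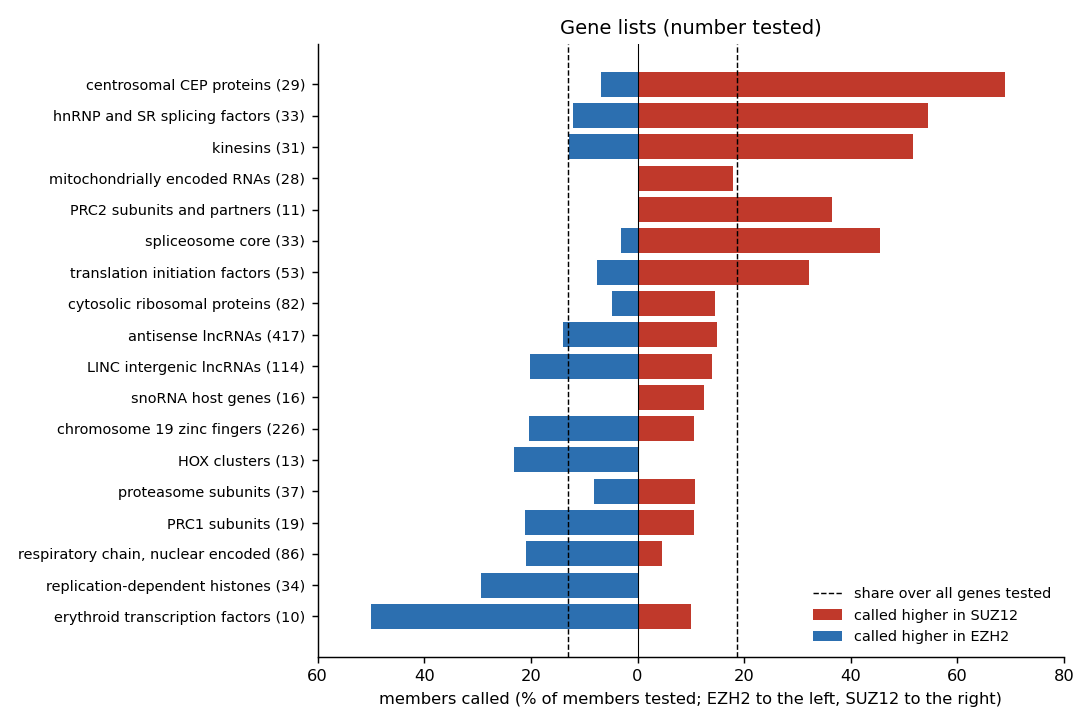
Share of the tested members called higher with SUZ12 (red, to the right) and with EZH2 (blue, to the left), in % of members tested, with the number tested in parentheses and dashed lines at the shares over all genes, 18.6% and 13.1%, for the gene lists with at least 10 members tested other than the marker lists. Of the lists drawn, CEP genes, hnRNP and SR genes and kinesins reach furthest toward SUZ12, and erythroid transcription factors furthest toward EZH2. Over mRNAs alone the shares are 22.3% and 17.8%.

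For other lists the input sets differed as well. Over all genes 18.6% were called for SUZ12 and 13.1% for EZH2, and 14.5% and 11.2% with the input difference subtracted. Over 13618 mRNAs 22.3% and 17.8% were called, and with the input difference subtracted 2792 and 1978 genes. Of 34 replication-dependent histone genes tested 10 (29.4%) were called for EZH2 and 0 for SUZ12, with a median of -0.65, but the input sets differed by a median of -1.53. With that subtracted 10 were called for SUZ12 and 1 for EZH2, and the median was 0.95. Of 86 nuclear genes of the respiratory chain 18 (20.9%) were called for EZH2 and 4 (4.65%) for SUZ12. Their input median was -0.63, and after subtraction 11 were called for SUZ12 and 1 for EZH2. For these 2 lists the lysates and the proteins cannot be told apart in the direct comparison. Of 82 cytosolic ribosomal protein genes, with an input median of -0.38 and a median difference of 0.16, 12 (14.6%) and 4 (4.88%) were called for SUZ12 and EZH2 as deposited, 7 and 8 after centring, and 20 and 1 with the input difference subtracted. Of 37 proteasome genes 4 (10.8%) and 3 (8.11%) were called, below the shares over all genes in both directions, and 7 and 1 after subtraction. Zinc finger genes of chromosome 19 had an input median of 0.12. Of 226 tested 24 (10.6%) were called for SUZ12 and 46 (20.4%) for EZH2, and after subtraction 14 and 47. ZNF132, whose most expressed transcript has a single exon, measured 1.77, 1.44 and 1.59 FPKM against 26.9 and 46.9 FPKM (log2 difference -3.82).

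Among lncRNAs, LINC00657 (NORAD, ENSG00000260032.1, chromosome 20, 34633540 to 34638940, minus strand), an unspliced RNA that binds Pumilio proteins, had the largest difference toward EZH2. It had a mean of 13.6 ± 1.47 FPKM with SUZ12 (SD, n = 3) and of 449 ± 184 FPKM with EZH2 (SD, n = 2), a log2 difference of -4.89 (SE 0.17, limma adjusted p = 1.61e-31) beside -0.21 between the inputs. Of its 25-base words 64.0% occur in other genes. The other 3 chosen by the same rule were RP13-638C3.4 (-4.78), RP11-214O1.2 (-4.68) and RP11-68I3.2 (-4.63). RP13-638C3.4 lies wholly opposite to exons of FOXK2, and 81.8% of RP11-68I3.2 lies opposite to exons of ABHD15. The library kit does not mark strand, so reads of these pairs cannot be told apart.

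Toward SUZ12, RP11-142G7.2 on the X chromosome measured 297, 327 and 281 FPKM with SUZ12 and 9.49 and 10.6 FPKM with EZH2 (log2 difference 4.78, SE 0.32, limma adjusted p = 7.88e-20), with 0.88 between the inputs. RP11-464F9.1 (4.61) shares 98.6% of its 25-base words with other genes. RP11-298J23.9 and RP11-330A16.1, short transcripts of 68 and 146 bases, were listed at 0 in both EZH2 libraries, at 321, 1055 and 402 FPKM and at 39.2, 31.0 and 15.5 FPKM with SUZ12, and neither passed the test with the input difference subtracted. RP11-298J23.9 lies wholly opposite to USP49. The mitochondrial tRNA MT-TY, of 66 bases, was listed at 0 in both EZH2 libraries. MT-TP was listed at 0 and 3664 FPKM in the EZH2 libraries, and its difference turned to -1.76 without the first of them. Of 28 mitochondrially encoded RNAs tested 5 (17.9%) were called for SUZ12, near the 18.6% of all genes, and 0 for EZH2, and 3 were called for SUZ12 with the input difference subtracted.

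Of 6 tested lncRNAs studied in connection with PRC2, 1 was called for SUZ12 and 2 for EZH2 (16.7% and 33.3%, against 14.1% and 10.2% of all lncRNAs), and 0 and 1 with the input difference subtracted. TUG1 measured 29.9, 31.0 and 35.3 FPKM with SUZ12 and 124 and 193 FPKM with EZH2 (log2 difference -2.24, limma adjusted p = 2.16e-18). H19, an imprinted RNA, measured 0.998, 3.05 and 3.44 FPKM against 45.5 and 33.8 FPKM. Its difference of -3.61 fell to -1.39 when the input difference of -2.21 was taken off, and it then no longer passed. MEG3 was called for SUZ12 at 1.47 with low values of 2.42 to 5.93 FPKM, and was at 0.66 after subtraction, without passing. MALAT1, a nuclear speckle RNA, measured 5976, 7315 and 5571 FPKM with SUZ12 and 753 and 1102 FPKM with EZH2. Its libraries did not overlap, but it was not called in the fit of 79 libraries (log2 difference 2.78, SE 1.47, limma adjusted p = 0.119). It did pass in the fits of 5 or of 11 libraries, and 95.6% of it lies opposite to the transcript TALAM1. NEAT1 (0.97) and KCNQ1OT1 (0.44) were not called. Intergenic LINC genes gave 16 calls for SUZ12 and 23 for EZH2 (20.2%) of 114, and 6 and 20 with the input difference subtracted. Named antisense lncRNAs gave 62 (14.9%) and 58 (13.9%) of 417, near the 14.1% and 10.2% of all lncRNAs, and 32 and 53 after subtraction. The snoRNA host genes gave 2 (12.5%) and 0 of 16, before and after, where 18.6% and 13.1% of all genes were called before subtraction. Of 14 RNA polymerase III transcripts listed only 3 were tested. Of these 2 were called for EZH2, where 13.1% of all genes were, and 0 with the input difference subtracted. RPPH1 was among the 2 called at -1.12, and was at 0.08 with the input difference subtracted.

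At the level of isoforms, SUZ12 was richer in transcripts that keep an intron. Of 104506 isoforms tested 26636 (25.5%) were higher with SUZ12 and 10115 (9.68%) with EZH2, and centring turned this balance to 15149 and 20351. Of 19390 retained-intron isoforms, 10433 (53.8%) were called for SUZ12 and 321 (1.66%) for EZH2, with a median difference of 1.19. Of 42461 protein coding isoforms, 6928 (16.3%) and 6779 (16.0%) were called, with a median of 0.02, and with centred libraries 3653 and 12593, with a median of -0.61. Between the input sets retained-intron isoforms had a median of 0.25, with 72 and 41 calls, and with the input difference subtracted their median was 0.93, with 6926 calls for SUZ12 and 243 for EZH2. With centred libraries the calls of retained-intron isoforms were 6546 and 886, with a median of 0.55. Isoforms annotated for nonsense-mediated decay gave 2222 and 540 calls of 8351, and 1212 and 1339 after centring.

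The share of a gene's FPKM in retained-intron isoforms, out of retained-intron and protein coding isoforms together, was then taken for 4676 genes with at least 5 FPKM in all 11 libraries. Its median over genes was 33.4, 34.9 and 32.9% in the SUZ12 libraries and 6.18 and 7.78% in the EZH2 libraries. The input sets lay between the proteins, with 18.9 to 20.2% in set 1 and 12.7 to 13.9% in set 3, so that SUZ12 was above and EZH2 below its own input. The library medians of the proteins differed by 26.8 percentage points between means of 33.8 ± 1.02 (SD, n = 3) and 6.98 ± 1.13 (SD, n = 2). Those of the input sets differed by less, with means of 19.4 ± 0.696 and 13.2 ± 0.654 (SD, n = 3 each). Gene by gene, the mean shares of the proteins differed by a median of 20.6 percentage points (quartiles 9.02 and 33.9). All SUZ12 libraries were above both EZH2 libraries for 4030 genes (86.2%) and below them for 124 (2.65%). Between the input sets 2293 genes (49.0%) were higher in all libraries of set 1 and 97 (2.07%) in all of set 3. EZH2 mRNA itself had shares of 32.8, 33.0 and 37.6% with SUZ12 and of 1.23 and 0.593% with EZH2, although its gene level was alike. BMI1, a core subunit of PRC1, had 60.8, 55.6 and 57.2% against 2.14 and 2.60%. MAT2A had 61.3, 70.2 and 61.7% against 38.1 and 32.8%. Not all named genes followed. CCDC18 was near 0% in the SUZ12 and EZH2 libraries, and CCDC41 overlapped at 17.9, 14.3 and 16.9% against 8.35 and 19.2%. EIF5B overlapped too, at 48.6, 50.6 and 44.4% against 20.8 and 48.6%. The isoform table holds annotated retained-intron isoforms and no unspliced precursor, and its values were estimated from paired reads of 31 bases, so that fragments of unspliced RNA may be counted in such isoforms.

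**Figure D5:**
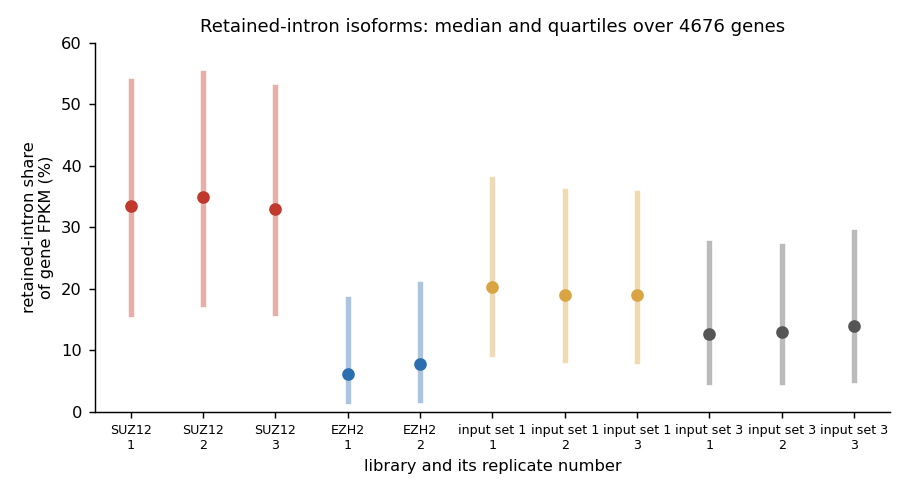
Median (points) and quartiles (bars) over 4676 genes of the share of gene FPKM in retained-intron isoforms, in %, for each library with its replicate number. The 3 SUZ12 libraries lie at 32.9 to 34.9%, the 2 EZH2 libraries at 6.18 to 7.78%, and the input libraries between them.

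Isoforms of 1 gene often went opposite ways. Of 12893 genes with at least 2 isoforms tested, 3166 (24.6%) had isoforms called in opposite directions. In 1678 genes both had at least 5 FPKM in the higher group, and the pair of isoforms with the largest differences was a retained-intron isoform with SUZ12 and a protein coding one with EZH2 in 670 of them, and the reverse in 13. The translation elongation factor EEF1A1 had the retained-intron isoform EEF1A1-207 at 105, 153 and 177 FPKM with SUZ12 and at 4.64 ± 4.44 FPKM (SD, n = 2) with EZH2 (log2 difference 4.93, SE 0.47, limma adjusted p = 3.29e-13). Its protein coding isoform EEF1A1-204 was at 234 and 249 FPKM with EZH2 but at 49.6, 0.00208 and 4.42 FPKM with SUZ12, which shows how far such estimates can vary between replicates. SSFA2 (ITPRID2) paired a retained-intron isoform at 33.3, 24.5 and 33.5 FPKM with SUZ12 with a protein coding isoform at 80.2 and 43.0 FPKM with EZH2. RFWD2 (COP1), a ubiquitin ligase, paired 2 protein coding isoforms of 617 and 2022 bases. The shorter, higher with SUZ12, had a log2 difference of 5.14 beside 3.29 between the input sets, and of 1.86 with that subtracted. EIF4G1, a scaffold of cap-dependent initiation, went the other way, with a protein coding isoform at 44.5, 44.3 and 57.1 FPKM with SUZ12 and a retained-intron isoform at 77.6 and 70.2 FPKM with EZH2.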

How the data were processed

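Reads of fRIP and input RNA from K562 cells were processed by the authors, who aligned them with TopHat to hg19 with GENCODE v18 and estimated abundance with Cuffdiff 2 and Cuffnorm; base calling used CASAVA 1.4 per the labels. The deposited gene and isoform tables hold FPKM per library, and each column was matched to a sample title, except 1 that showed its group only and was used as a library of that group. In the deposited table of comparisons, only the group FPKM of input was used, to find the nearest input set; its fold changes, test statistics, p-values and q-values were not used. For strand use and read filters no source used here gives a setting.

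From these values log2(FPKM + 1) was computed for 25442 of 48453 genes and 104506 of 185661 isoforms that reached 1 FPKM in 2 or more of the 79 libraries. A single limma 3.58.1 fit (R 4.3.3) with an intensity trend held a mean for each protein and input set, without a replicate block. The fit was tested on simulated data. The 5 contrasts were SUZ12 minus EZH2, input set 1 minus set 3, their difference, and each protein minus its input set, each adjusted by Benjamini-Hochberg.

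Identifiers were matched to GENCODE v44 lifted to hg19 (46055 genes, 172143 isoforms), the source of classes, coordinates, exon numbers and sequences. Exon number was weighted over isoforms by input FPKM. GC content and words used the most expressed transcript in input. Python 3.11.15, numpy 2.4.6 and scipy 1.17.1 were used. Depth was read from FPKM steps of single isoform genes, of which 91.8 to 93.5% lay within 0.15 of a whole step.

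Named genes were the 10 mRNAs and 4 lncRNAs with the largest called difference in each direction with no overlap of libraries, at least 10 FPKM in the higher group, and a difference beyond 1 also after centring and after input subtraction; PRC2 genes; from each other of the 23 lists the largest called members and the most abundant; EIF5B; and 4 genes with opposed isoforms of at least 5 FPKM. Other list members and TUG1 were named after their values were seen. The comparison, lists and members were chosen with earlier results of these data known. Alternatives were other pseudocounts and filters, centring, quantile normalization, input subtraction, fewer libraries in the fit, a replicate block, no trend, and each library left out. The values of 1 list member are not reported here.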

Additional observations from a re-analysis of the deposited data

Results flagged for a closer look

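For some genes the contrast of fRIP with the own input set went opposite ways for the 2 proteins. Of 3421 genes with SUZ12 above input set 1, 122 were below input set 3 with EZH2, 77 of them mRNAs. Over all genes 7.67% were below with EZH2. Of 2203 genes with SUZ12 below, 184 were above with EZH2, 109 of them mRNAs, where 10.5% of all genes were above. Both counts lie under those shares, and 874 genes were below input with both proteins. Choosing opposed genes fixes the sign and a large size of the difference between the contrasts, so the difference was not tested apart from that choice. SMC4, a condensin subunit chosen after its values were seen, measured 1176, 1273 and 1509 FPKM with SUZ12, 154 to 169 FPKM in input set 3 and 78.5 and 71.3 FPKM with EZH2, with enrichments of 2.91 for SUZ12 and -1.10 for EZH2 on the log2 scale. CCDC18, PNN and CEP290 were on the same side, and MGAT3, MFHAS1 and B3GALT6 were among those on the other side.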

How the results depend on the processing

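With pseudocounts of 0.1 and 0.5 FPKM, other filters, quantile normalization, fewer libraries in the fit, no trend, centring or input subtraction, the counts of genes for SUZ12 against EZH2 stayed within 1.5 times of 4722 and 3341. Leaving out each library gave 4485 to 4724 and 3096 to 3588 genes. Isoform calls moved more: centring gave 15149 for SUZ12 and 20351 for EZH2, and input subtraction 17683 and 6697 (24380 in all), so the isoform balance depends on the scale, while each library left out gave 22980 to 25806 and 9282 to 10132. Settings for the input sets, for each protein against its input and for the retained-intron share, and those of exon number other than the most expressed isoform, were chosen after seeing the data. Between the input sets, centring gave 47 and 539 genes (586 in all), leaving out input set 1 replicate 1 gave 71 for set 1 and 180 in all, and leaving out input set 3 replicate 2 gave 115 for set 1, with ranges of 71 to 193 and 109 to 144 (180 to 337 in all) over the libraries left out. With 0.1 FPKM as pseudocount, 3339 genes were below input set 3 with EZH2. Of 1564 values of the 92 named genes under alternatives, 36 lost and 8 gained significance, and 2 turned: MT-TP to -1.76 without EZH2 replicate 1 (-1.76 to 10.08 over the libraries left out) and RPPH1 to 0.08 with the input difference subtracted. The exon correlation was 0.324 with the sum of protein coding isoforms only, 0.489 with the longest protein coding transcript and 0.393 to 0.444 over the libraries left out; that of GC content was -0.341 to -0.305, and that of length turned to -0.0144 with input subtraction. The retained-intron difference of the library medians was 26.0 to 27.6 percentage points over the libraries left out and 27.2 with at least 20 FPKM. A fit with the replicate number as a replicate block called 4763 and 3384 genes; the libraries share 2 numbers, their deviations correlated at -0.0454 and 0.0833, and the numbers were not taken to pair them. EZH2 was sequenced less deeply, and what that means for values near 1 FPKM was not tested.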
